A study of Arabidopsis thaliana with 9 samples.

Results

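The genes described here are 8 auxin response genes of Arabidopsis thaliana, given by locus code: GH3.1 (AT2G14960), GH3.2 (AT4G37390), GH3.3 (AT2G23170), GH3.5 (AT4G27260, also WES1), GH3.6 (AT5G54510, also DFL1), SAUR9 (AT4G36110), SAUR10 (AT2G18010) and SAUR-AC1 (AT4G38850, also SAUR15). Of these, 7 were among the 20777 loci with a value, and GH3.2 was not analysed here. RNA came from the vegetative part of Col-0 seedlings at growth stage 1.04, raised on MS medium at 22 °C with 16 h of light and 8 h of dark, and was read on Affymetrix ATH1 arrays. The 3 groups, with 3 biological replicates each, were the wild type (WT), the SCARECROW mutant scr-3 (scr) and the SHORT-ROOT mutant shr-5 (shr). All values are log2 values made by the authors with RMA, a procedure that corrects background, equalises the distributions of the arrays and combines the probes of a locus.

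Auxin acts by bringing its F-box receptors, TIR1 and the AFB proteins, together with Aux/IAA repressors, which are then degraded and release the auxin response factors (ARFs) on their target genes. GH3 and SAUR genes are 2 of the families that auxin induces within a short time. The GH3 enzymes of the group that holds GH3.1 to GH3.6 join indole-3-acetic acid, the main auxin, to amino acids and so lower the free hormone, a negative feedback. SAUR proteins promote cell expansion by inhibiting PP2C phosphatases of clade D, which otherwise switch off the plasma membrane proton pumps, and many are expressed in growing shoot organs.

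The SHR transcript fell by 1.89 in shr (SE 0.10, limma adjusted p = 2.87e-05), and SCR differed by -0.57 in scr (limma adjusted p = 0.110). SCR also fell in shr, by 0.51 (limma adjusted p = 0.0399), a call lost in 6 of 9 fits without 1 array. Between shr and scr it differed by 0.06. SHR differed by -0.39 in scr and did not pass. Across loci, pairs of arrays correlated at r = 0.983 to 0.997, except for those with shr replicate 3, at 0.970 to 0.979, so results that rest on it are given with and without it. Of the leaf markers 4 of 8 were measured, with an array mean of 12.4 to 12.7 in all groups. The 7 measured root markers had array means of 6.04 to 6.07 in WT, 5.83 to 6.11 in scr and 5.94 to 6.23 in shr. Among these PYK10, a beta-glucosidase gene of root and hypocotyl, was at 10.8 in the WT mean and rose in shr by 0.84 (limma adjusted p = 7.64e-04). It was the 1 root marker above the WT mean in shr, and 6 were below it, with a median difference of -0.10. Of 7 shoot meristem markers KNAT1, STM and KNAT6 rose in shr by 1.26, 0.79 and 0.46 (limma adjusted p = 0.00251, 0.0121 and 0.00777). Of all loci 4.35% rose in shr and 3.79% fell. CLV3, WUS, CUC1 and CUC2 did not pass there. In shr 5 of the 7 were above and 2 below the WT mean, with a median difference of 0.03. Among all 20777 loci 9865 were above it in shr and 10912 below. The array mean of this list was 4.73 to 4.83 in WT, 4.85 to 5.0 in scr and 5.09 to 5.16 in shr. The part of these tissues in the results below was not tested. In RNA of whole shoots, fewer cells that express a gene and less RNA per cell cannot be told apart.

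SAUR-AC1 was the gene whose mutants lay furthest below WT. Its values were 7.51, 7.41 and 7.54 in WT, 6.69, 6.99 and 6.28 in scr, and 6.27, 6.13 and 6.82 in shr. Each scr and each shr array was below each WT array, and the ranges of the mutants overlapped. SAUR-AC1 fell by 1.08 in shr against WT (SE 0.21, 95% interval -1.55 to -0.62, limma adjusted p = 0.0158), a 2.12-fold lower level. In scr the difference from WT was -0.83 (SE 0.21, 95% interval -1.30 to -0.36, limma adjusted p = 0.153) and did not pass the threshold of 0.05. The difference between shr and scr was -0.25 (95% interval -0.72 to 0.21, limma adjusted p = 0.580).

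SAUR-AC1 was the 1 gene of the 7 that passed in shr against WT, a comparison in which 8.14% of all loci passed (4.35% higher and 3.79% lower). None of the 7 passed in scr against WT or in shr against scr with limma, where 0.366% (0.236% higher and 0.13% lower) and 1.34% (0.765% higher and 0.578% lower) of all loci passed. At an unadjusted p under 0.05 SAUR-AC1 and SAUR10 were lower in scr than in WT, as were 5.71% of all loci (5.28% were higher). In shr SAUR-AC1 was lower and GH3.5 higher than in WT at that level, beside 12.2% of all loci lower and 12.4% higher. GH3.3 was higher in shr than in scr, beside 8.45% of all loci higher and 8.24% lower. The shr call of SAUR-AC1 did not hold when any 1 of the WT arrays or shr replicate 2 was left out (limma adjusted p up to 0.0612). With shr replicate 3 left out, SAUR-AC1 fell by 1.29 in shr (SE 0.17, limma adjusted p = 0.00150) and by 0.83 in scr (SE 0.15, limma adjusted p = 0.0252).

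**Figure D1:**
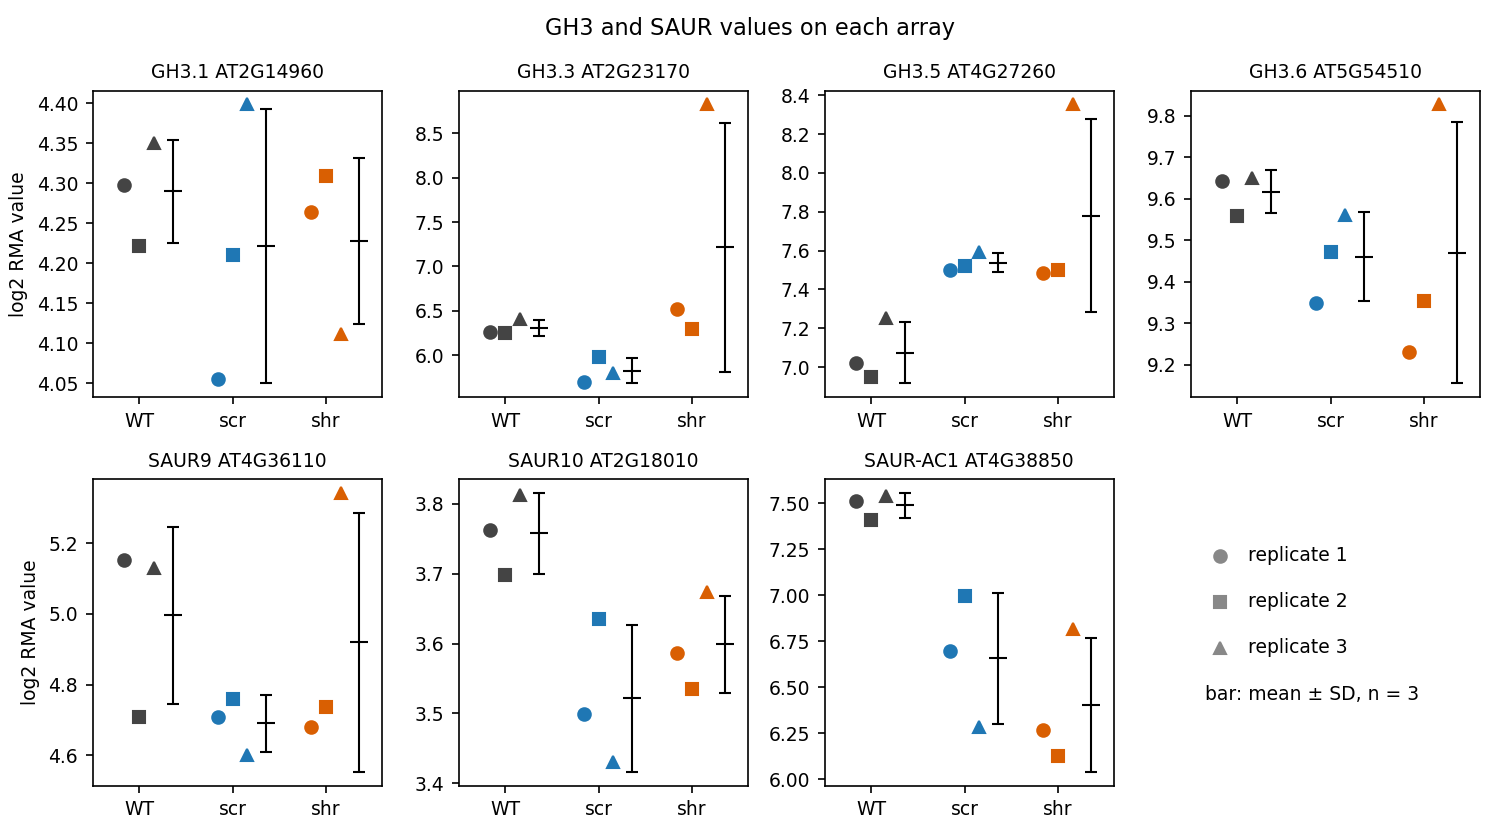
Log2 RMA value (y axis, own range in each panel) of the 7 measured genes on each array, by genotype (x axis). Symbols mark replicate numbers and bars the mean ± SD of 3 arrays. SAUR-AC1 lies below WT on all 6 mutant arrays, GH3.5 above WT on all 6, and GH3.3 is at 8.83 on shr replicate 3 alone.

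The other SAUR genes gave smaller differences. SAUR9, whose protein inhibits clade D phosphatases, had values of 5.15, 4.71 and 5.13 in WT, 4.71, 4.76 and 4.60 in scr, and 4.68, 4.74 and 5.34 in shr. WT replicate 2 lay with the mutant arrays and shr replicate 3 above the WT arrays, so the groups overlapped. Its difference from WT was -0.31 in scr (95% interval -0.72 to 0.11, limma adjusted p = 0.606). For shr it was -0.08 (95% interval -0.49 to 0.34, limma adjusted p = 0.839), and -0.29 without shr replicate 3 (limma adjusted p = 0.192).

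SAUR10, a gene induced by auxin and brassinosteroid, had values of 3.762, 3.698 and 3.813 in WT, 3.498, 3.636 and 3.430 in scr, and 3.587, 3.536 and 3.674 in shr. All 6 mutant arrays were below the WT arrays. The difference from WT was -0.24 in scr (95% interval -0.41 to -0.06, limma adjusted p = 0.285) and did not pass. Nor did that of shr, at -0.16 (95% interval -0.34 to 0.02, limma adjusted p = 0.254). These values lie near the low end of the table, whose lowest value is 2.90, and 5.70% of loci had a mean value at or below that of SAUR10.

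Among the GH3 genes, GH3.5 differed from WT on every mutant array. GH3.5 encodes an enzyme that conjugates auxin and also acts on salicylic acid. Its values were 7.02, 6.95 and 7.25 in WT, 7.50, 7.52 and 7.59 in scr, and 7.48, 7.50 and 8.35 in shr. The scr and shr arrays were all above the WT arrays, and shr replicate 3 was the highest of all. The difference from WT was 0.46 in scr (SE 0.21, 95% interval -0.01 to 0.94, limma adjusted p = 0.472). For shr it was 0.70 (SE 0.21, 95% interval 0.23 to 1.18, limma adjusted p = 0.0759), and neither passed. Over the 8 arrays without shr replicate 3 the errors of GH3.5 were smaller and both passed. It then rose by 0.46 in scr (SE 0.09, limma adjusted p = 0.0287) and by 0.42 in shr (SE 0.10, limma adjusted p = 0.0244), and the difference of shr from scr was -0.05 (95% interval -0.27 to 0.18).

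GH3.3, another auxin conjugating enzyme gene, showed the widest spread. It was at 6.26, 6.25 and 6.41 in WT, 5.70, 5.98 and 5.80 in scr, and 6.52, 6.30 and 8.83 in shr. The scr arrays were all below the WT arrays, shr replicates 1 and 2 lay near WT, and shr replicate 3 stood far above every other array. On shr replicate 3 GH3.3 was 2.42 above the mean of the other shr arrays, and 0.385% of all loci had a larger gap in either direction. With all arrays GH3.3 differed from WT by -0.48 in scr (SE 0.55, limma adjusted p = 0.830). The difference of shr was 0.91 (SE 0.55, limma adjusted p = 0.348). In the fit without shr replicate 3 it fell by 0.48 in scr (SE 0.10, limma adjusted p = 0.0345) and was at 0.10 in shr (95% interval -0.14 to 0.35, limma adjusted p = 0.592). In the same fit GH3.3 was higher in shr than in scr by 0.58 (95% interval 0.34 to 0.83, limma adjusted p = 0.0236), against 1.39 (95% interval 0.16 to 2.63, limma adjusted p = 0.244) with all arrays.

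GH3.6, whose overexpression shortens the hypocotyl, had values of 9.64, 9.56 and 9.65 in WT, 9.35, 9.47 and 9.56 in scr, and 9.23, 9.35 and 9.83 in shr. Shr replicates 1 and 2 lay below the WT arrays and shr replicate 3 above them. The difference of scr from WT was -0.16 (95% interval -0.48 to 0.16, limma adjusted p = 0.774). That of shr was -0.15 (95% interval -0.47 to 0.17, limma adjusted p = 0.576). Leaving out shr replicate 3, GH3.6 fell by 0.33 in shr (SE 0.09, limma adjusted p = 0.0437).

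GH3.1 was at 4.30, 4.22 and 4.35 in WT, 4.06, 4.21 and 4.40 in scr, and 4.26, 4.31 and 4.11 in shr, so the 3 groups overlapped. Its differences from WT were -0.07 in scr (95% interval -0.29 to 0.16) and -0.06 in shr (95% interval -0.29 to 0.16). Of all loci, 20.6% had a mean value at or below that of GH3.1.

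**Figure D2:**
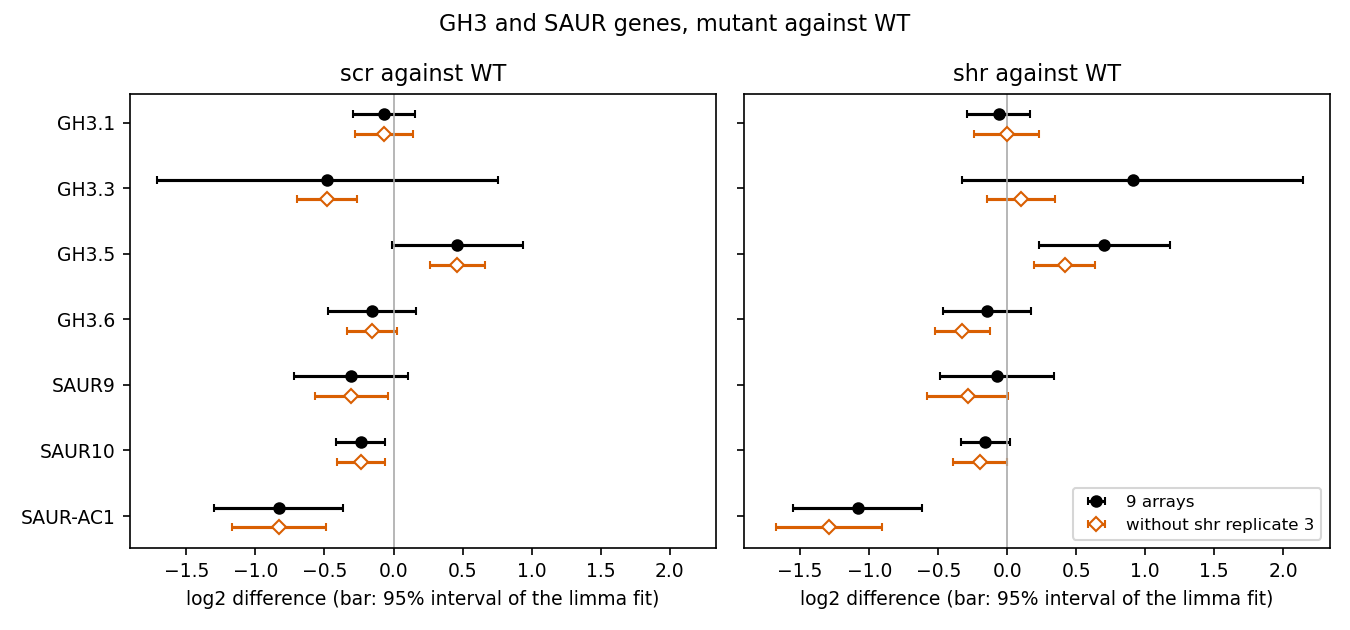
Log2 difference of scr and of shr from WT (x axis) for the 7 genes (y axis), with 95% intervals of the limma fit. Filled points use 9 arrays and open diamonds leave out shr replicate 3. The intervals of GH3.3 narrow most without that array, and SAUR-AC1 is below 0 in both mutants in both fits.

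Ordered by group mean, SAUR-AC1 was highest in WT (7.49 ± 0.07, SD, n = 3), then scr (6.66 ± 0.36) and shr (6.40 ± 0.36). GH3.5 ran the other way, from WT (7.07 ± 0.16) to scr (7.54 ± 0.05) and shr (7.78 ± 0.50). GH3.3 was lowest in scr (5.83 ± 0.14), followed by WT (6.31 ± 0.09) and shr (7.22 ± 1.40). In none of these orders did scr and shr differ past the threshold with all arrays. The place of shr above scr for GH3.5 rests on shr replicate 3. Without that array the difference of shr from scr was -0.05 for GH3.5, and that of shr from WT was 0.10 for GH3.3.

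Over the 8 arrays without shr replicate 3, 3 of the 7 genes passed in scr against WT (GH3.5 higher, GH3.3 and SAUR-AC1 lower), where 2.86% of all loci passed (1.55% higher and 1.31% lower). In shr against WT 3 passed (GH3.5 higher, GH3.6 and SAUR-AC1 lower), where 12.7% of all loci did (7.43% higher and 5.29% lower). In shr against scr GH3.3 passed, where 2.94% of all loci did (1.91% higher and 1.03% lower). The arrays of scr and WT did not overlap for 4 of the 7 genes, against 22% of all loci. The corresponding count was 3 for shr against WT, where 29.3% of all loci did not overlap, and 1 (GH3.3) for shr against scr, where 21% did not. The median difference of the 7 genes with all arrays was -0.24 in scr and -0.08 in shr, beside 0.01 and -0.01 over all loci tested. The shr median was -0.20 without shr replicate 3, beside -0.02 over all loci.

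The array of shr replicate 3 was above both other shr arrays for 6 of the 7 genes, against 40.5% of all loci. The gap to their mean was 0.86 for GH3.5, 0.63 for SAUR9, 0.62 for SAUR-AC1, 0.54 for GH3.6 and 0.11 for SAUR10. GH3.1 was the exception, at -0.17. Among 19 other early auxin genes (Aux/IAA, LBD and further auxin-induced genes) 13 were above both arrays on shr replicate 3, with a median gap of 0.23 beside 0.01 over all loci. The largest gaps were 1.41, 1.39, 1.25, 1.17 and 1.15, for IAA2, IAA29, HAT2, IAA19 and IAA6, named after their values were seen. Of the 19 genes 5 were below both arrays, and the lowest gap was -0.56, for IAA17. In the rest of the GH3 family 3 of 11 measured loci were above both and 4 below both, with a median gap of -0.02. Of 53 further measured SAUR loci 28 were above both and 13 below both, with a median gap of 0.09. Of the auxin response factors 7 of 15 were above both, with a median gap of 0.02. Of the phosphatase and proton pump genes listed as SAUR partners 10 of 11 were, with a median gap of 0.31. The 4 leaf markers were all below both arrays on shr replicate 3 (median gap -0.19), and of the 7 root markers 3 were above and 2 below. The part of leaf tissue or of that 1 array in these gaps was not tested.

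**Figure D3:**
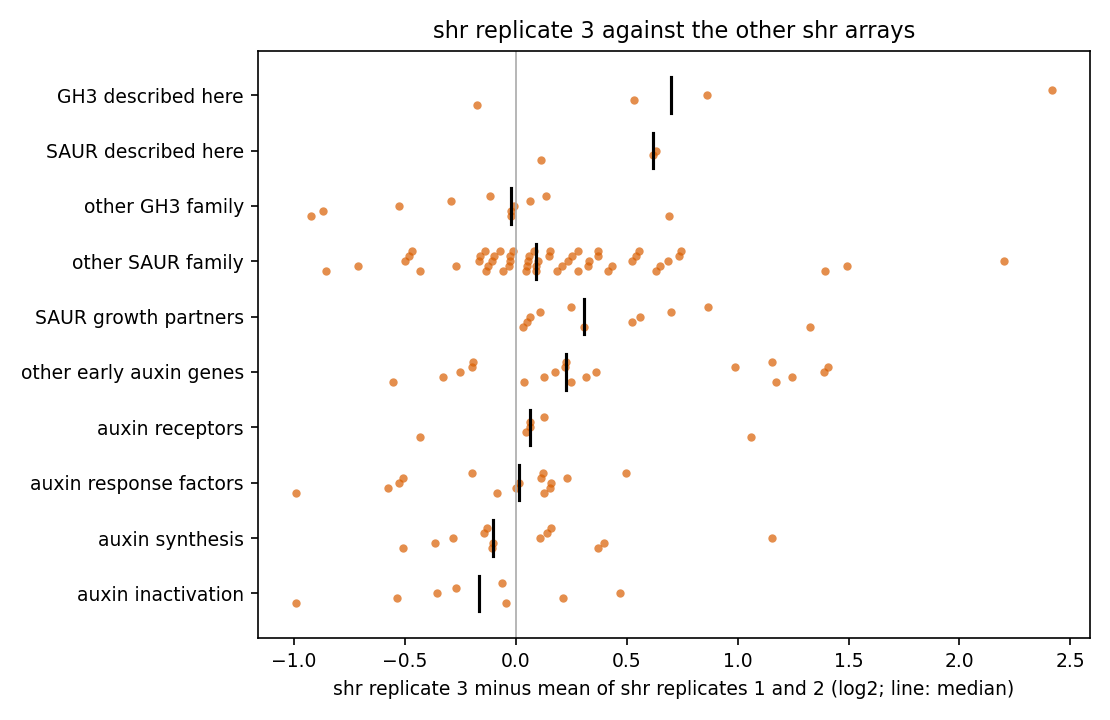
Log2 value on shr replicate 3 minus the mean of shr replicates 1 and 2 (x axis) for each measured locus of 10 auxin gene lists (y axis). Vertical lines are list medians. GH3.3 is the highest point at 2.42, and the 3 SAUR genes described here lie at 0.11 to 0.63.

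The wider SAUR family had more loci below WT than above in both mutants. The reference gene table lists 77 further SAUR loci, and 53 of them were measured. Of these, 42 were below and 11 above the WT mean in scr, and 39 were below and 14 above it in shr. Among all 20777 loci 10069 were below it in scr and 10912 in shr. Both comparisons use the same WT arrays. In shr against WT 10 fell and 1 rose (limma adjusted p under 0.05), where 3.79% of all loci fell and 4.35% rose, with a median difference of -0.15 beside -0.01 over all loci. When shr replicate 3 was left out, 15 fell and 1 rose, where 5.29% of all loci fell and 7.43% rose, and the median was -0.21. SAUR64 (AT1G29450) fell by 1.16 (SE 0.13, limma adjusted p = 0.00151), SAUR6 (AT2G21210) fell by 1.20 (SE 0.18), SAUR63 (AT1G29440) fell by 0.83 (SE 0.12) and AT1G29510, SAUR68 in that table, fell by 0.81 (SE 0.13). SAUR63, SAUR64 and AT1G29510 belong to a group of neighbouring SAUR genes of similar sequence, whose probes may share signal. SAUR36 (AT2G45210), a gene associated with leaf senescence, was the gene that rose, by 0.96 (limma adjusted p = 0.0293), and is named after its value was seen.

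In scr against WT 0 of these 53 loci passed with limma over all arrays, where 0.366% of all loci did, and the median was -0.12. At an unadjusted p under 0.05, 8 were lower and 1 higher, where 5.71% of all loci were lower and 5.28% higher. Over the arrays other than shr replicate 3, SAUR64 fell by 0.65, SAUR66 fell by 0.53 and SAUR50 fell by 0.74 in scr. In that fit 1.31% of all loci fell in scr. SAUR66 and SAUR50 are named after their values were seen. Between the mutants SAUR63 and SAUR6 were lower in shr than in scr, with differences of -0.76 and -0.97 (limma adjusted p = 0.0242 and 0.0403). Of all loci 0.578% were lower and 0.765% higher in that comparison. The SAUR63 difference did not pass when scr replicate 1, scr replicate 2 or shr replicate 2 was left out (limma adjusted p up to 0.0959). That of SAUR6 needed each WT array and each scr array (up to 0.133 when 1 was left out). Both SAUR63 and SAUR6 lost this call in the fit of scr and shr alone.

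In the gene order of the reference table SAUR-AC1 lies between SAUR14 (AT4G38840) and SAUR16 (AT4G38860), with a long non-coding RNA gene, AT4G09765, between it and SAUR16. Both are named for their place, with values seen. SAUR16 was at 9.92, 9.76 and 9.77 in WT, 9.64, 9.54 and 9.31 in scr, and 9.27, 9.01 and 9.19 in shr, with each mutant array below each WT array. It fell by 0.65 in shr (SE 0.11, limma adjusted p = 0.00833) and differed by -0.32 in scr (limma adjusted p = 0.285). SAUR14 differed by -0.39 in shr (limma adjusted p = 0.162) and by -0.14 in scr (limma adjusted p = 0.821). How far the probes of these neighbours share signal was not tested.

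The 11 measured loci of the rest of the GH3 family moved in both directions in shr. GH3.17 (AT1G28130), which makes auxin conjugates with glutamate, was at 6.74, 6.63 and 6.41 in WT and at 7.28, 7.13 and 7.90 in shr. It rose by 0.84 (SE 0.18, limma adjusted p = 0.0259). GH3.9 (AT2G47750) fell by 0.56 in shr (SE 0.13, limma adjusted p = 0.0339). Of all loci 4.35% rose in shr and 3.79% fell. The GH3.17 call did not hold without any 1 of the WT arrays (limma adjusted p up to 0.0965). Nor did that of GH3.9, which needed shr replicate 2 and scr replicate 1 as well (up to 0.102). In the fit of WT and shr alone GH3.17 lost its call and GH3.9 kept it. In scr none of the 11 passed with limma over all arrays, where 0.366% of all loci did. At an unadjusted p under 0.05, where 5.28% of all loci were higher and 5.71% lower, 1 of the 11 was higher. That gene was DFL2 (AT4G03400), named after its value was seen, at 0.54 (limma adjusted p = 0.0713). Once shr replicate 3 was left out DFL2 rose by 0.54 in scr (limma adjusted p = 0.0246), where 1.55% of all loci rose. In shr 3 of the 11 then rose and 1 fell, where 7.43% of all loci rose and 5.29% fell. Among the 11, JAR1, which joins jasmonic acid to isoleucine and is named after its value was seen, rose by 0.38 (limma adjusted p = 0.0230), against a difference of 0.07 with all arrays (limma adjusted p = 0.870).

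Upstream of these genes, the receptor gene TIR1 fell by 0.31 in shr (SE 0.08, limma adjusted p = 0.0393), as 1 of 6 receptor genes. Of all loci 3.79% fell there. The TIR1 call was lost in 8 of 9 fits without 1 array, all but that without shr replicate 3 (limma adjusted p up to 0.134). It was also lost in the fit of WT and shr alone. Of 15 ARF genes 3 rose in shr and none fell, where 4.35% of all loci rose and 3.79% fell. ARF4, which encodes a repressor, rose by 0.69 (SE 0.10, limma adjusted p = 0.00477). ARF7, a transcriptional activator, rose by 0.42 (limma adjusted p = 0.0189) and ARF2, a repressor, by 0.38 (limma adjusted p = 0.0260). ARF4 was also higher in shr than in scr, by 0.75 (SE 0.10, limma adjusted p = 0.0133). That call was lost without scr replicate 2 (0.0657) and in the fit of scr and shr alone. The ARF7 call needed each of the WT arrays and shr replicate 2 (up to 0.0673 without 1 of them), and that of ARF2 needed WT replicates 2 and 3 (up to 0.0929). ARF7 and ARF2 also lost these calls in the fit of WT and shr alone.

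The 19 other early auxin genes had a median difference of -0.22 in scr and -0.20 in shr. In shr 3 of them fell and none rose, where 3.79% of all loci fell. ARGOS, an auxin-induced gene that promotes organ growth, fell by 1.08 (SE 0.14, limma adjusted p = 0.00287). IAA1, an Aux/IAA repressor gene, fell by 0.63 (limma adjusted p = 0.0320) and ACS4, an ethylene synthesis gene, fell by 0.39 (limma adjusted p = 0.0400). IAA1 and ACS4 lost their calls in 5 and 7 of 9 fits without 1 array (up to 0.103 and 0.124), and ARGOS in none. The fit of WT and shr alone also lost the calls of IAA1 and ACS4. In scr 0 of the 19 passed with limma, where 0.366% of all loci did. At an unadjusted p under 0.05, 5 were lower in scr and 0 higher, where 5.71% of all loci were lower and 5.28% higher. Setting shr replicate 3 aside, 4 fell in scr and 8 in shr, where 1.31% and 5.29% of all loci fell. IAA29, named after its value was seen, differed by -1.17 in scr and -1.12 in shr with all arrays, neither past the threshold. Without that array it fell by 1.17 in scr (limma adjusted p = 3.40e-04) and fell by 1.58 in shr (limma adjusted p = 3.49e-05).

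No auxin synthesis gene of 13 (the TAA and YUC genes) passed over all arrays with limma in either mutant. Of all loci 0.366% passed in scr and 8.14% in shr. At an unadjusted p under 0.05, 1 of the 13 passed in scr and 4 in shr. In scr 5.28% of all loci were higher and 5.71% lower at that level, and in shr 12.4% and 12.2%. Without shr replicate 3 YUC2 rose by 0.38 in shr (limma adjusted p = 0.0475) and YUC8 fell by 0.39 (limma adjusted p = 0.0372), both named after their values were seen, against differences of 0.29 and -0.00014 with all arrays. Among 8 measured loci listed for auxin inactivation and conjugate hydrolysis AT1G14130 rose in shr, by 0.78 (SE 0.16, limma adjusted p = 0.0214). Of all loci 4.35% rose there. The AT1G14130 call did not hold without WT replicate 2 or 3 (limma adjusted p up to 0.0841). Nor did it hold in the fit of WT and shr alone. Of the 11 loci listed as partners of SAUR proteins, clade D phosphatases and proton pumps, 0 passed over all arrays with limma. At an unadjusted p under 0.05, 1 was higher in scr, where 5.28% of all loci were. In shr 1 was higher and 1 lower at that level, where 12.4% and 12.2% of all loci were. The phosphatase gene AT5G02760 (APD7), named after its values were seen, was at 10.18, 10.19 and 9.96 in WT, 8.82, 8.50 and 9.98 in shr, and 9.70, 9.81 and 9.77 in scr. Only shr replicate 3 of the mutant arrays reached the WT range. The difference in shr was -1.01 (limma adjusted p = 0.0832) with all arrays and -1.45 (limma adjusted p = 7.73e-05) without shr replicate 3. The proton pump gene AHA1 differed by 0.20 in scr (limma adjusted p = 0.288) and, for shr, by 0.21 (limma adjusted p = 0.0988).

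**Figure D4:**
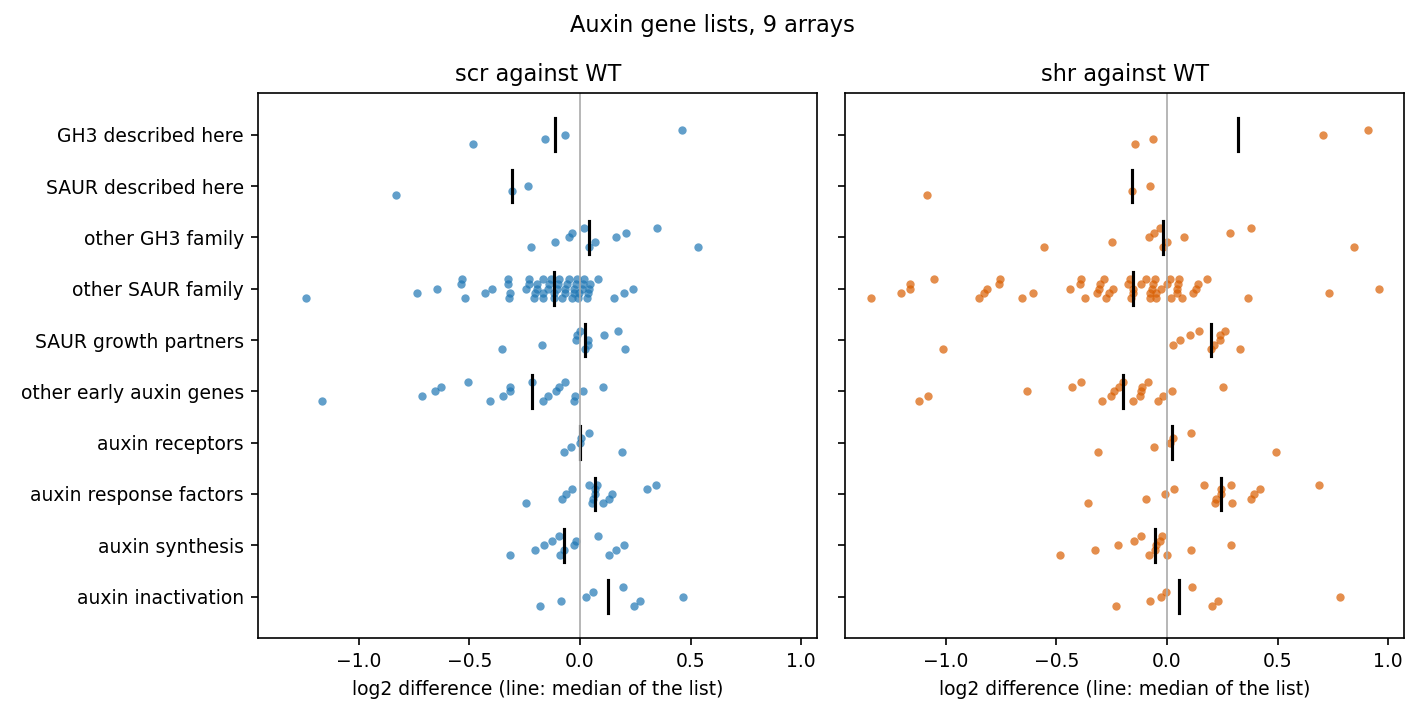
Log2 difference from WT (x axis, 9 arrays) for each measured locus of 10 auxin gene lists (y axis), in scr and in shr. Vertical lines are list medians. Both comparisons use the same WT arrays. The other early auxin genes have medians of -0.22 and -0.20, and the auxin response factors of 0.07 and 0.24.

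The loci with a symbol whose values ran most like each gene were ranked by Pearson's r over the 9 arrays, which share genotype and array effects. For SAUR-AC1 they were SVL2, the cytokinin activation gene LOG1 and ADF9 (r = 0.955, 0.953 and 0.938). For SAUR10 they were HMGA, CB5LP and RUXF (r = 0.968, 0.947 and 0.936), and for SAUR9 HO4, AL3 and ATRER1C1 (r = 0.966, 0.962 and 0.954). For GH3.5 they were CSLE1, LCB1 and AAE16 (r = 0.974, 0.973 and 0.965), and for GH3.6 bZIP1, HAT1 and PHB2 (r = 0.976, 0.968 and 0.967). GH3.1 had TAC1, MYB69 and RPS10 (r = 0.937, 0.907 and 0.882). GH3.3 was closest to the syntaxin gene SYP52, the sterol methyltransferase gene SMT1 and RABA5E, at r = 0.990, 0.989 and 0.988 with all arrays and 0.908, 0.865 and 0.869 without shr replicate 3.

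Among the 7 genes themselves, SAUR10 and SAUR-AC1 ran most alike over the 9 arrays (r = 0.862, and 0.874 without shr replicate 3). GH3.3 and GH3.5 correlated at 0.715 with all arrays and at -0.418 over the 8 others. GH3.5 and SAUR-AC1 correlated at -0.481, and at -0.811 without shr replicate 3. The arrays fall into 3 genotypes, so these values describe the differences between the groups as well as the spread within them.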

How the data were processed

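The deposited table gives 20777 loci, 1 row each, as log2 values. Per the submitters' processing notes the authors used RMA. Neither its version nor the probe mapping or build is stated in the material used. The log2 scale was inferred from the span of the values (2.90 to 14.03). Groups and replicate numbers came from the sample titles, and the labels call the replicates biological without naming separate plants or batches. The number of arrays limits the precision.

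One limma model (R 4.3.3, limma 3.58.1) with a mean per genotype was fitted to all 9 arrays and all loci, with no filter (6 residual and 2.99 prior degrees of freedom). P-values are two-sided, adjusted by Benjamini and Hochberg over all 20777 loci, with a threshold of 0.05. Intervals are 95% intervals of this fit. The procedure was tested on simulated data with independent normal noise and the same spread in each group. The simulated data held no outlying array, so that test does not cover an array like shr replicate 3.

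Names came from the RefSeq gene table of TAIR10.1 (20508 loci matched), used for names and gene order only. The genes and lists were chosen with earlier results of these data known. The naming rule takes the genes described, SHR, SCR, up to 4 called loci of each list with the lowest adjusted p per comparison, and the 3 loci with a symbol most like each gene. The model above held no pairing. Deviations from the group means correlated in same-numbered scr and WT arrays at 0.277, 0.138 and 0.107. The replicate numbers entered only as a block in an alternative fit, a pairing read from the data. The block was an alternative, as were centring, a filter on dim loci, a trend with robust eBayes, array weights, 2-group fits and leaving out each array.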

Additional observations from a re-analysis of the deposited data

Results flagged for a closer look

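For 6 genes named above the difference of shr from WT and that of scr from WT were unequal in the direct test of shr against scr (limma). The naming rule itself took loci that passed in this comparison, so their number follows from the selection and is not a result. Of all loci 1.34% passed there. ARF4, PYK10 and KNAT6 were higher in shr, by 0.75, 0.54 and 0.38 (limma adjusted p = 0.0133, 0.0195 and 0.0498). SHR, SAUR6 and SAUR63 differed by -1.51, -0.97 and -0.76 (limma adjusted p = 3.74e-04, 0.0403 and 0.0242). PYK10 lost this call in 4 and KNAT6 in 8 of 9 fits without 1 array (limma adjusted p up to 0.0853 and 0.176). In the fit of scr and shr alone SHR kept this call, and ARF4, PYK10, KNAT6, SAUR63 and SAUR6 lost it. That fit gave 24 called loci in place of 279. None of the 7 GH3 and SAUR genes described was among these 6, and no test for an outlying value within a group was made, since each group holds 3 arrays.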

How the results depend on the processing

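Counts of the lists without shr replicate 3 were an alternative chosen after seeing the data. The 7 genes in 3 comparisons gave 306 values under the alternatives, of which 290 kept their side of the threshold, 12 gained a call and 4, all of SAUR-AC1 in shr, lost it. No called value changed sign. SAUR-AC1 in shr lay between -1.29 and -0.95 (limma adjusted p 0.00150 to 0.0612). GH3.5 in shr lay between 0.42 and 0.85 (0.0244 to 0.212). With array weights SAUR-AC1 passed in scr (-0.87, limma adjusted p = 0.0314), and with WT and scr arrays alone so did SAUR-AC1 (0.0327), GH3.3 (0.0349) and GH3.5 (0.0386). The replicate block changed no call of the 7 genes in scr, where 52 loci passed in place of 76. In shr against WT, where same-numbered arrays gave r = 0.204, -0.106 and 0.0994, GH3.5 passed with the block (0.0401) and TIR1 did not (0.0585). There 1720 loci passed in place of 1691. In shr against scr 236 loci passed with the block in place of 279, and KNAT6 did not (0.0803) (r = 0.444, -0.0448 and 0.335). Array weights gave 491 called loci in scr against WT, 2657 in shr against WT and 594 in shr against scr. Fits of 2 groups gave 577, 807 and 24. Leaving out 1 array gave 17 to 595, 654 to 2643 and 33 to 610. The highest counts came without shr replicate 3, and the lowest without scr replicate 3 (17), WT replicate 2 (654) and scr replicate 2 (33). With arrays shifted to a common median 687 loci were higher and 1279 lower in shr against WT, in place of 904 and 787, and in shr against scr 137 and 231 in place of 159 and 120. The cause of these changes was not tested. Values near the low end of the table, those of SAUR10 and GH3.1, limit what can be seen of these genes.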
